A study of Mus musculus with 50 samples.

Results

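In p53/MCA sarcomas of the mouse 7 genes known from Schwann cells and axons, Stmn2, Gap43, Ngfr, Mbp, Sox10, S100b and Pmp22, were followed. They were taken by name. All 7 were found among the 37469 genes counted, and all 7 were among the 19327 genes with enough reads to be tested. Expression was measured by bulk RNA sequencing of whole tumors, 32 primary sarcomas and 16 transplants in 8 groups, and of 2 single libraries labelled 402230. Primary tumors arose in the gastrocnemius muscle of 129/SvJae Trp53 fl/fl mice aged 6 to 10 weeks, where Cre-expressing adenovirus was injected to delete Trp53 and 300 µg of the carcinogen 3-methylcholanthrene (MCA) was given. Transplants grew in the gastrocnemius of syngeneic mice from 50000 injected cells of a single line, 402230. All 16 transplants therefore share 1 origin, while each primary tumor had its own. In every comparison of models, the transplant model and this line cannot be told apart.

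By the labels, tumors were treated at about 150 mm3 and taken 3 days later. Mice were given 200 µg of muDX400, which blocks PD-1 on T cells, or of an isotype control, and 0 or 20 Gy to the hind limb, and each of the 4 treatments had 8 primary tumors and 4 transplants. Tumors given 0 Gy and the isotype antibody are called untreated, and tumors given 20 Gy with anti-PD-1 are called the combination. The study asked how transplants and primary tumors differ in their response to these treatments. Total counts were 31810461 to 54008259 per tumor. Trp53 had 517 to 2685 counts per library, but its count per gene also covers exons outside the floxed stretch and cells of the host, so it does not check the deletion.

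A peripheral nerve is made of axons, which reach out from neurons whose cell bodies lie in ganglia or the spinal cord, and of Schwann cells, which ensheathe the axons and build myelin around the larger ones. After injury Schwann cells leave the myelinating state and axons grow again. The RNA of most axonal proteins is mainly in the cell body of the neuron, outside the muscle.

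Among the Schwann cell genes, Sox10 encodes the transcription factor that keeps cells in the Schwann lineage, Ngfr the p75 neurotrophin receptor, and S100b a calcium-binding protein that fat cells and cartilage also make. Mbp and Pmp22 encode proteins of compact myelin, and Pmp22 is also made by fibroblasts and many other cells. Gap43 encodes a growth cone protein of growing axons that Schwann cells without myelin also make, and Stmn2 encodes stathmin-2, a tubulin-binding protein of neurons and their axons.

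Pmp22 is known for alternative first exons, and a count per gene adds up transcripts from all of them. It lies on GRCm38 at chr11:63128982-63159547, plus strand. RefSeq (GRCm38.p6) has 4 start windows for it, and the first and the last are shown because their CpG content differs and the count cannot tell their transcripts apart. Each line gives 150 bases of the plus strand upstream of the start, at chr11:63128832-63128981 and chr11:63132653-63132802, with CpG in capitals.
Pmp22 first start: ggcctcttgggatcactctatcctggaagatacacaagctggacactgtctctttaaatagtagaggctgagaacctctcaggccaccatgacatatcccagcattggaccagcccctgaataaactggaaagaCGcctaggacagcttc
Pmp22 last start: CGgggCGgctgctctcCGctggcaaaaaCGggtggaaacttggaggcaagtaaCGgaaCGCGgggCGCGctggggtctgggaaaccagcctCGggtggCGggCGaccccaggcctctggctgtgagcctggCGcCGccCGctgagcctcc
The window from 250 bases before to 50 bases after the start held 3 CpG at the first and 30 at the last, and was 50.7% and 72.3% G or C. Over all 32851 promoter windows of that length the median was 7 CpG. Which start was used in these tumors was not measured.

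The 2 single libraries had marker levels that go against their labels, and they were kept out of the tests. In the library labelled cell line 402230 the macrophage genes Csf1r and C1qa had 234 and 254 CPM and the endothelial gene Pecam1 had 104.4. Untreated transplants had 243 to 449, 424 to 584 and 71.7 to 134.6 CPM of these. In the library labelled primary tumor 402230 they were at 0.492, 0.0670 and 0.112 CPM, 6 of 7 T cell genes were at 0, and 9 muscle fiber genes summed to 3.49 CPM against 238 in the other library. The labels give these libraries 1 index barcode and the tumors a pair, so preparation and sample cannot be told apart. Whether the 2 libraries were exchanged was not tested. Their values are given under the labels as they stand, and after an exchange each would belong to the other sample.

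The 7 genes covered a wide span of levels. Levels are given as counts scaled to sequencing depth by edgeR's TMM factors (CPM), and between genes as CPM per kilobase of exon. On that scale the mean over the 48 tumors was 35.0 for Pmp22, 19.7 for Gap43, 7.23 for Stmn2, 2.31 for Mbp, 0.683 for S100b, 0.348 for Ngfr and 0.0995 for Sox10. Pmp22 was above 92.3% of the genes tested and Sox10 above 8.50%. Neighbours in this order overlapped between tumors: in primary tumors Gap43 ran from 0.417 to 83.1 CPM per kb and Stmn2 from 0.109 to 46.9, and S100b from 0.0701 to 3.56 and Ngfr from 0.0511 to 1.26. Reads of Sox10 were few, from 0 to 92 per library, those of S100b 4 to 201 and those of Ngfr 7 to 177, so single values of these genes carry a large counting error.

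Most of these genes also differed widely between tumors of one group. The within-group SD of log2 CPM (prior count 2) was 1.79 for Stmn2, larger than in 97.7% of the genes tested, 1.37 for Sox10, 1.33 for Gap43, 1.16 for S100b and 1.08 for Ngfr. The median over all genes tested was 0.496. Mbp was somewhat above it, at 0.58, and Pmp22 below it, at 0.39.

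**Figure D1:**
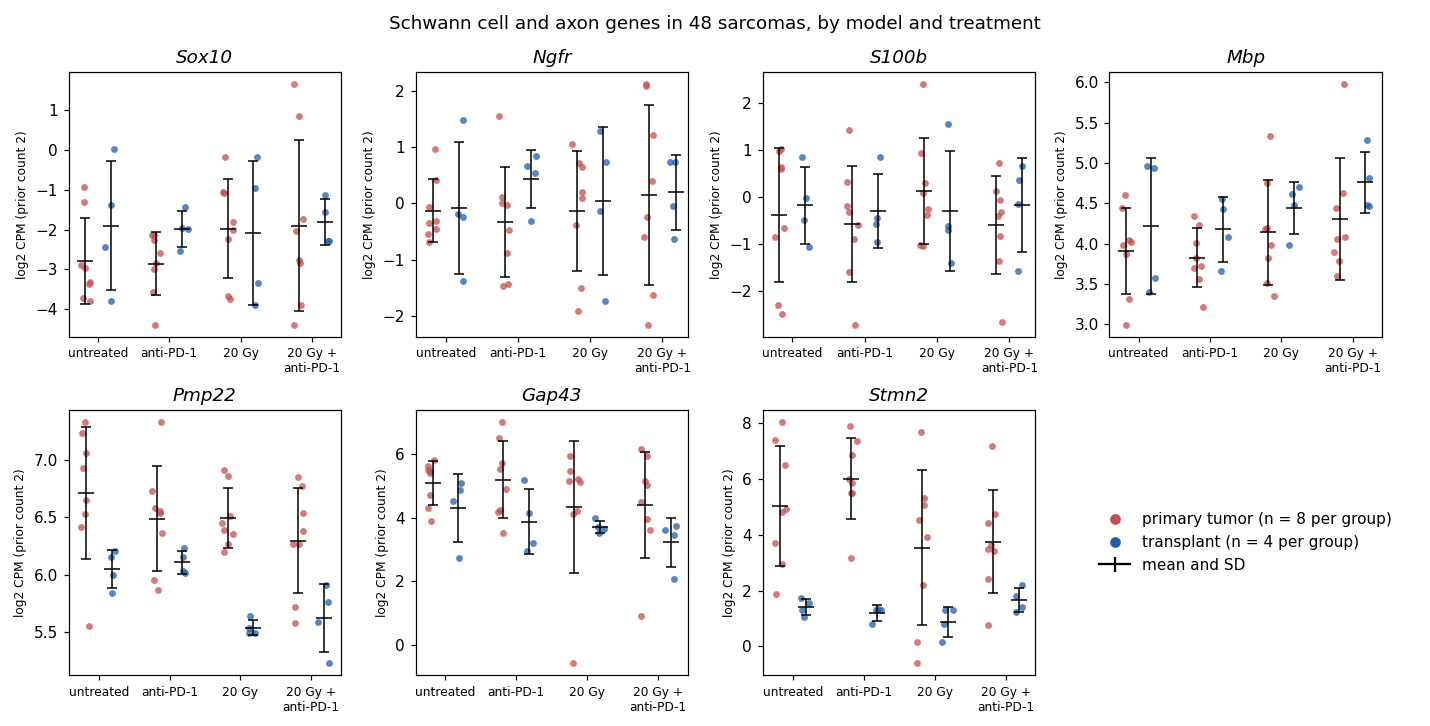
Expression of the 7 genes in 48 sarcomas, as log2 CPM (prior count 2), by treatment, with primary tumors (n = 8 per group) in red and transplants (n = 4 per group) in blue; bars give the mean and SD. Transplants sit close together and low in Stmn2, and lie below all primary tumors in Pmp22 after 20 Gy, while the groups overlap in most other panels.

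Stmn2, at chr3:8509360-8561606 on the plus strand, separated the tumor models most among the 7 genes. It was low and even in transplants and spread over more than 2 orders of magnitude in primary tumors. In untreated transplants it was 2.03, 2.89, 3.26 and 2.42 CPM, and in the 8 untreated primary tumors it was 3.63, 29.4 and 263 CPM (lowest, median and highest). All 4 transplants were below all 8 primary tumors, as they were for 4.36% of the genes tested. The log2 fold change from primary tumors to transplants was -4.84 ± 1.28 (SE; edgeR adjusted p = 0.0116), a 28.6-fold lower level, and with limma voom it missed the threshold (-3.62, adjusted p = 0.108).

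Under anti-PD-1 alone Stmn2 was 2.45, 1.68, 2.44 and 2.51 CPM in transplants and 8.83, 60.9 and 237 CPM in primary tumors. The models again did not overlap, with all transplants below for 3.3% of the genes tested, and the log2 fold change was -5.34 ± 1.32, adjusted p = 0.00832. After 20 Gy it was 2.39, 1.68, 2.41 and 1.06 CPM in transplants and 0.613, 19.1 and 207 CPM in primary tumors. Here 6 of 8 primary tumors were above every transplant, and the other two, at 1.06 and 0.613 CPM, were below the lowest transplant, the former by less than the last digit shown. The log2 fold change was -4.42 ± 1.26, adjusted p = 0.0308. That call was lost without primary replicate 3, the highest (-3.14, adjusted p = 0.0938), and without each of the 4 transplants (adjusted p = 0.0790 to 0.124). It was also lost with limma voom (-2.50, adjusted p = 0.425), with no filter (0.0682), with only the groups compared (0.101) and with the library labelled primary tumor 402230 added (0.0528).

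After the combination Stmn2 was 4.496, 3.43, 2.31 and 2.58 CPM in transplants and 1.65, 11.7 and 145.7 CPM in primary tumors, of which 7 were above every transplant and 1 was below them. This difference did not pass the test (-3.20 ± 1.17, adjusted p = 0.0831; with DESeq2, 0.0101). Over all treatments, 28 of 32 primary tumors were above the highest transplant, 2 were below the lowest and 2 lay between. The average of the 4 log2 fold changes was -4.45 ± 0.63, adjusted p = 4.14e-07, and it passed in every alternative fit. The SD of log2 CPM was 2.26 over the 32 primary tumors and 0.46 over the 16 transplants. As the transplants share 1 line, neither the difference nor the spread can be assigned to the model rather than to that line.

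Of the stathmin family, Stmn4, another neuronal stathmin, was also lower in transplants, untreated (-5.13 ± 1.10, adjusted p = 0.00175) and on the average of treatments (-3.93 ± 0.51, adjusted p = 6.08e-08). Reads of Stmn4 were few: its median was 0.788 CPM in primary tumors and 0.0998 CPM in transplants, with at most 264 counts in any tumor. Stmn1, the stathmin of dividing cells, did not pass on the average (0.26 ± 0.13, adjusted p = 0.141). Stmn3 had at most 25 counts in any tumor and was not tested.

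Gap43, at chr16:42248442-42340651 on the minus strand, passed as lower in transplants only when treatments were averaged. Untreated transplants had 33.6, 29.3, 6.597 and 23.0 CPM and untreated primary tumors 14.8, 42.7 and 55.3 (lowest, median and highest). Of the 8 primary tumors 5 were above every transplant, and under each treatment all 4 transplants were below the median of the primary tumors. The log2 fold changes were -0.68 untreated, -1.47 under anti-PD-1, -1.24 after 20 Gy and -1.62 after the combination, with adjusted p from 0.146 to 0.556. Their average was -1.25 ± 0.34, adjusted p = 0.00376, and with limma voom it missed the threshold (-0.99, adjusted p = 0.0604). The lowest primary tumors, at 0.635 CPM after 20 Gy and 1.85 after the combination, were below every transplant, and the former, replicate 8, was also the lowest in Stmn2. The span of Gap43 overlaps that of Mir6540, and how reads shared by both were counted is not given in the sources used here.

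Pmp22 was lower in transplants by less than Stmn2. Untreated transplants had 57.3, 70.9, 73.9 and 63.7 CPM, and untreated primary tumors 46.7, 110.9 and 161 (lowest, median and highest). Of the 8 primary tumors 7 were above every transplant, and the log2 fold change was -0.74 ± 0.24, adjusted p = 0.0370. This call was lost in 12 of 19 alternative fits, among them those without any 1 of the 4 transplants (adjusted p = 0.0632 to 0.119) and without primary replicate 4, 5, 7 or 8.

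After 20 Gy Pmp22 was 46.2, 44.9, 49.7 and 45.004 CPM in transplants and 73.3, 85.4 and 120.3 CPM in primary tumors. All transplants were below all primary tumors, as for 2.33% of the genes tested, and the log2 fold change was -0.97 ± 0.24, adjusted p = 0.0113 (without transplant replicate 4, adjusted p = 0.0543). Under anti-PD-1 alone (-0.44 ± 0.23, adjusted p = 0.269) and after the combination (-0.71 ± 0.24, adjusted p = 0.0567) the difference did not pass, although the latter passed with DESeq2 (0.0245) and without primary replicate 2, 3 or 4 (adjusted p = 0.0313 to 0.0382), over a range of 0.0245 to 0.250 in all alternative fits. The average over treatments was -0.72 ± 0.12, adjusted p = 6.58e-06, which passed in every alternative fit, and 26 of 32 primary tumors were above the highest transplant. Of the related epithelial membrane proteins, Emp1 (-0.60 ± 0.15, adjusted p = 0.00154) and Emp2 (-0.69 ± 0.17, adjusted p = 0.00170) were lower on the average and Emp3 was not called (0.27 ± 0.12, adjusted p = 0.0875).

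Sox10, Ngfr, S100b and Mbp passed between models under none of the treatments nor on the average. Sox10, at chr15:79154908-79165240 on the minus strand, was 0.0239, 0.137, 0.968 and 0.336 CPM in untreated transplants and 0.0238, 0.0661 and 0.477 CPM in untreated primary tumors. Of the transplants 1 was above the primary tumors and the others were within their range, with a log2 fold change of 1.30 ± 0.96 (95% interval -0.64 to 3.23). Under anti-PD-1 it was 0.321, 0.125, 0.207 and 0.203 CPM in transplants, 3 of them above the highest primary tumor, at 0.181 CPM (1.003 ± 1.004, adjusted p = 0.621). With only these groups fitted, Sox10 had too few reads to be tested.

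Ngfr, at chr11:95568818-95587735 on the minus strand, was 0.334, 0.802, 2.75 and 0.830 CPM in untreated transplants and 0.576, 0.746 and 1.91 in untreated primary tumors. S100b, at chr10:76253853-76261159 on the plus strand and overlapping Dip2a on the other strand, was 0.429, 0.664, 0.946 and 1.77 CPM in transplants and 0.130, 1.03 and 2.00 in primary tumors. Mbp, at chr18:82475146-82585637 on the plus strand and overlapping the pseudogene Rpl21-ps8 on the other, was 10.5, 11.9, 31.2 and 30.5 CPM in transplants and 7.92, 15.96 and 24.3 in primary tumors. In each of these genes the untreated models overlapped. Averaged over treatments the log2 fold changes and their 95% intervals were 0.28 (-0.70 to 1.26) for Sox10, 0.14 (-0.51 to 0.79) for Ngfr, -0.032 (-0.75 to 0.69) for S100b and 0.31 (-0.049 to 0.66) for Mbp. The average passed for Mbp without replicate 4 of the primary combination group (adjusted p = 0.0400; 0.0400 to 0.323 over all alternative fits). The directions of Ngfr, S100b and Sox10 changed with single libraries or the tool.

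The members were chosen with earlier results of these data known, so the shares that follow describe them and are no test of the set. Of the 7 genes, 2 passed as lower in untreated transplants, where 6.41% of all genes tested did and 10.3% passed in either direction. Under anti-PD-1 1 was lower (all genes 3.96%, either direction 7.35%), after 20 Gy 2 (2.4% and 4.87%), after the combination 0 (3.72% and 6.76%) and on the average 3 (19.1% and 34.8%), and none was higher. The median log2 fold change of the 7 was -0.12 untreated and -0.032 on the average, beside -0.0067 and -0.0025 over all genes tested. In whole tumors, fewer cells of a type and less RNA per cell cannot be told apart. Whether the sarcoma cells themselves carried the RNA of Stmn2, Gap43 or Pmp22 was not tested.

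**Figure D2:**
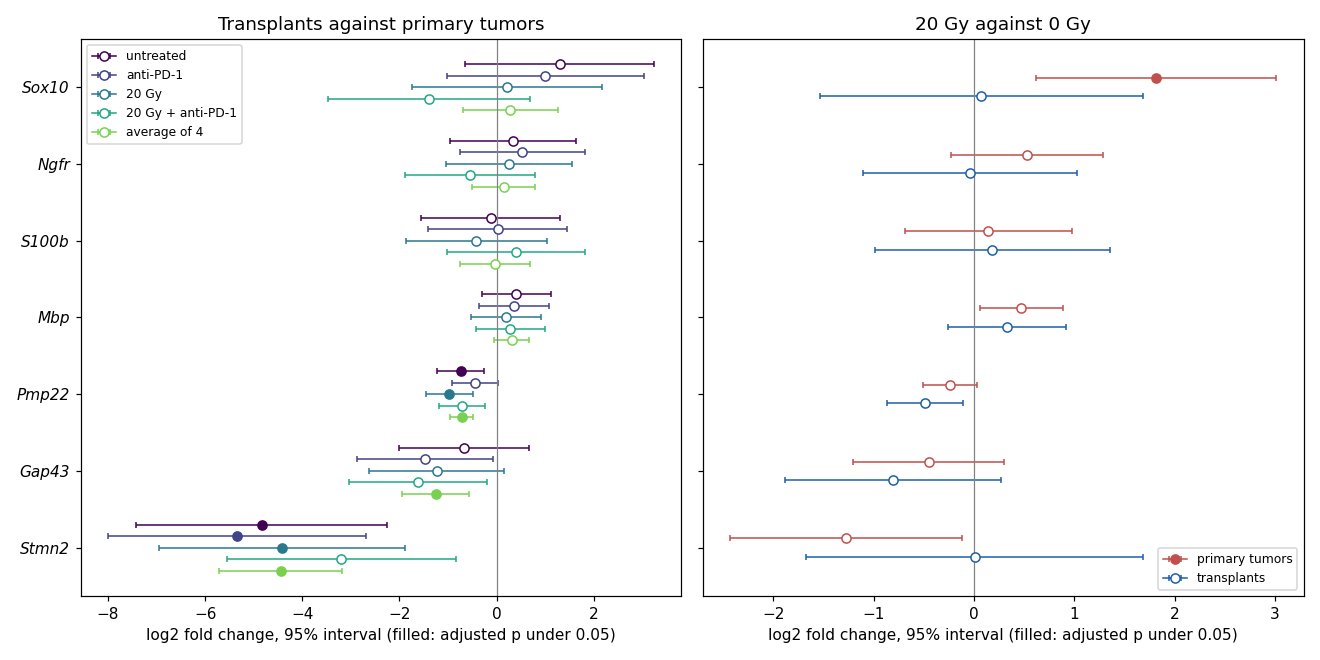
Log2 fold changes of the 7 genes with 95% intervals from the edgeR fit, between models by treatment (left) and for 20 Gy against 0 Gy within each model (right); filled points passed an adjusted p of 0.05. Stmn2 lies between -5.34 and -3.20 in the contrasts of models, Pmp22 and Gap43 also lie below 0, and Sox10 after radiation of primary tumors is the 1 filled point on the right.

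Of 17 other Schwann cell genes, none passed between untreated models, where 10.3% of all genes tested did (median log2 fold change -0.32 beside -0.0067). On the average of treatments 1 was higher in transplants and 6 were lower (median -0.21), where 34.8% of all genes tested passed, 19.1% as lower. The share of the list that passed was thus near that of all genes. The higher one was Erbb3, a neuregulin receptor of the Schwann lineage (0.53 ± 0.19, adjusted p = 0.0238). The lower ones included Cdh19, a cadherin of Schwann cell precursors (-3.47 ± 0.67, adjusted p = 7.21e-05), Egr2, the factor that turns on myelination (-0.72 ± 0.17, adjusted p = 0.000914), and the adhesion molecules Ncam1 (-1.04 ± 0.20, adjusted p = 5.38e-05) and L1cam (-0.94 ± 0.22, adjusted p = 0.00103). The others were Prx (-0.53) and Gldn (-1.66), proteins of myelin and of the node.

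Of 20 axon and neuron genes, 16 were tested. In untreated tumors 3 were lower in transplants and none higher (median -0.42), where 10.3% of all genes tested passed: Stmn4, the neuronal deubiquitinase Uchl1 (-1.50 ± 0.48, adjusted p = 0.0370) and the growth cone protein Basp1 (-0.67 ± 0.21, adjusted p = 0.0285). On the average 5 were lower, now also the neurofilaments Nefl (-1.75 ± 0.47, adjusted p = 0.00344) and Nefm (-1.42 ± 0.43, adjusted p = 0.00881), and 1 was higher, the heavy neurofilament Nefh (0.71 ± 0.26, adjusted p = 0.0299), with a median of -0.36. This share was near the 34.8% of all genes tested that passed. Some neuronal genes of the list were near 0: Chat was at 0 in 46 of 48 tumors, and Elavl3 and Dcx had at most 6 and 16 counts in any tumor. Others were detected, with up to 239 counts for Isl1, 86 for Elavl4 and 2320 for Snap25. The summed CPM of the list ran from 319 to 1425 in primary tumors and from 283 to 616 in transplants.

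The smaller lists that follow are read against the same 34.8%. Of 8 neurotrophins and receptors tested, none was higher in transplants on the average, and Bdnf, a ligand of the p75 receptor, was among those that were lower (-0.50 ± 0.20, adjusted p = 0.0446). Of 4 neuregulin and ErbB genes tested, Nrg2 (1.08) and Erbb3 were higher. Of 6 genes of repair Schwann cells tested, Jun was lower in transplants (-0.29 ± 0.11, adjusted p = 0.0304). Sox2, a factor of immature Schwann cells, was higher (5.09 ± 0.56, adjusted p = 1.95e-09), with a median of 32.7 CPM against 0.205 in primary tumors. Both libraries labelled 402230 also held Sox2, without a count of Sox10. Which cells made Sox2 was not tested. Of 6 neural crest factors tested, Sox9 (-0.87 ± 0.18, adjusted p = 0.000208) and Snai2 (-0.95) were lower and Twist1 (0.42) higher.

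Markers of some other cell types that could carry these genes also differed between models. They are read against the 34.8% of all genes tested that passed, 19.1% as lower and 15.7% as higher. On the average of treatments all 5 fibroblast genes were lower in transplants (median -0.90, summed CPM 5009 to 47847 in primary tumors and 3360 to 16409 in transplants), as were 3 of 6 endothelial and pericyte genes and 1 of 6 macrophage genes. Of 7 T cell genes 6 were higher, and of 6 adipocyte genes 2, Cidec and Fabp4. Against the 34.8%, the macrophage share was below that of all genes and the adipocyte share near it. By direction, the macrophage share was near the 19.1% that were lower. The adipocyte share, which rests on 2 genes, was above the 15.7% that were higher. None of the 9 muscle fiber genes passed. Melanocytes, another Sox10 lineage, left little trace: Tyr and Tyrp1 were at 0 in 44 and 46 of 48 tumors, and Pmel, the 1 gene of that list tested, was lower (-0.93). The part of fibroblast content in the Pmp22 and Gap43 differences was not tested.

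Radiation moved 1 of the 7 genes past the threshold in primary tumors, upward, where 31% of all genes tested passed and 16.8% were higher. Sox10 was 0.0238, 0.0661 and 0.477 CPM (lowest, median and highest) in untreated primary tumors and 0, 0.106 and 0.181 under anti-PD-1. After 20 Gy it was 0.0266, 0.221 and 0.830 CPM, and after the combination 0, 0.147 and 3.10. The irradiated groups reached higher but overlapped the others. The log2 fold change for 20 Gy against 0 Gy, averaged over the antibodies, was 1.81 ± 0.59, adjusted p = 0.0177. Without replicate 4 of the combination group, the tumor at 3.10 CPM, it was 1.33 (adjusted p = 0.0757), and with limma voom 0.96 (adjusted p = 0.270).

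Markers of skeletal muscle and of macrophages were also called in that contrast. Of 9 muscle fiber genes, 8 were higher after radiation of primary tumors, with a median log2 fold change of 2.40 beside 0.0037 over all genes tested. Their summed CPM ran from 65.8 to 7953 in the 16 primary tumors at 0 Gy and from 13.6 to 84930 in the 16 at 20 Gy, the highest sum being that of the same replicate 4. Group medians of the sum were 1811 untreated and 1422 under anti-PD-1, and 1431 after 20 Gy and 1920 after the combination. Without that replicate 1 muscle fiber gene passed (median 1.76), without replicate 4 of the 20 Gy group also 1 (1.89), with no filter 2, and with limma voom 0 (median 0.62, 0 at an unadjusted p under 0.05). Of 6 macrophage genes 4 were higher, Adgre1, Cd68, Cd14 and C1qa (median 0.60), with limma voom 2. Their summed CPM ran from 1035 to 2075 at 0 Gy and from 696 to 3693 at 20 Gy.

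Of the 17 other Schwann cell genes 5 were higher and none lower (median 0.54). This share was near the 31% of all genes tested that passed, of which 16.8% of all genes were higher. Without replicate 4 of the combination group the median was 0.088 and 6 were higher. The 5 were Pou3f1, a factor of promyelinating Schwann cells (2.30 ± 0.29, adjusted p = 8.36e-08), Egr2 (0.88 ± 0.19, adjusted p = 0.000524), Erbb3 (0.80 ± 0.22, adjusted p = 0.00519), and the myelin genes Mag (0.64 ± 0.20, adjusted p = 0.0131) and Cnp (0.36 ± 0.12, adjusted p = 0.0206). The part of muscle and macrophage content in the Sox10 difference and in these was not tested.

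Stmn2 did not pass after radiation of primary tumors (-1.28 ± 0.57, adjusted p = 0.0841), although it did with DESeq2 (adjusted p = 0.0471), with limma voom (-1.95, adjusted p = 0.0130) and without either of the highest irradiated tumors (0.00776 without replicate 3 of the 20 Gy group and 0.00808 without replicate 1 of the combination group). Over all alternative fits its adjusted p ran from 0.00776 to 0.193. Of the axon and neuron list, 4 genes were lower, Nefl (-1.99 ± 0.52, adjusted p = 0.00319), Nefm (-1.29), Rtn1 (-0.61) and Basp1 (-0.39 ± 0.12, adjusted p = 0.00876), and 2 were higher, Nefh (1.40) and Mapt (1.63), with a median of 0.25, where 31% of all genes passed. Without replicate 1 of the 20 Gy group or replicate 2 of the anti-PD-1 group 2 were lower and 1 higher. Mbp had 0.47 ± 0.21, adjusted p = 0.0764 (without replicate 6 of the combination group, adjusted p = 0.0458, and without replicate 4 of that group, its highest tumor, 0.28, adjusted p = 0.251). Ngfr (0.53 ± 0.38), S100b (0.14 ± 0.41), Gap43 (-0.45 ± 0.37) and Pmp22 (-0.24 ± 0.13) did not pass.

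In transplants radiation moved none of the 7 genes past the threshold, against 7.23% of all genes tested. Pmp22 was closest (-0.49 ± 0.19, adjusted p = 0.111), with 57.3 to 74.9 CPM in the 8 transplants at 0 Gy and 37.5 to 60.2 CPM in the 8 at 20 Gy. When only the transplant groups were fitted it passed (-0.47, adjusted p = 0.00375; 0.00375 to 0.258 over all alternative fits). Of the other Schwann cell genes Mag, Cnp and Pou3f1 were higher. The difference of the radiation responses between models, tested as an interaction, passed for 0.0259% of all genes tested and for none of the 7: it was -1.74 ± 0.998, adjusted p = 0.649 for Sox10 and 1.28 ± 1.01, adjusted p = 0.777 for Stmn2.

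Anti-PD-1 moved none of the 7 genes past the threshold in primary tumors, where 0.0155% of all genes passed. In transplants edgeR called no gene (0%), while 383 had an unadjusted p under 0.05 and DESeq2 called 1. The interaction of anti-PD-1 with the model likewise passed for 0% of genes with edgeR, 524 having an unadjusted p under 0.05, and for 1 gene with DESeq2, none of the 7. Against the same untreated tumors, the combination moved none of the 7 past the threshold in primary tumors (18.8% of all genes passed) or in transplants (4.41%). Sox10 came closest in primary tumors (2.17 ± 0.83, adjusted p = 0.0600). It passed in 8 of 22 alternative fits. Among them were those without replicate 6 or 8 of the untreated and 1, 2, 5 or 7 of the combination group (adjusted p down to 0.0296). With only the groups compared, Sox10 had too few reads to be tested, so its test here relied on reads in the other groups. Without replicate 4 of the combination group it fell to 1.20 (adjusted p = 0.354), and with limma voom it was 0.73 (adjusted p = 0.639). Pmp22 (-0.44 ± 0.19, adjusted p = 0.0917) passed without untreated replicate 2 (0.0288) and Stmn2 (-1.37 ± 0.81, adjusted p = 0.238) without replicate 1 of the combination group (-2.56, adjusted p = 0.0222). Over all their alternative fits the adjusted p ran from 0.0288 to 0.327 for Pmp22 and from 0.0222 to 0.542 for Stmn2.

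Tumors of one group that were high in one of these genes tended to be high in certain others. Levels were compared as log2 CPM minus the group mean over the 48 tumors, with p-values from permutations within groups, over 56 relations: 21 pairs of members and 35 of a member with a marker list. Of the 21 pairs, 9 passed an adjusted p of 0.05 by both Pearson's r and Spearman's rho. Sox10 rose with Ngfr (r = 0.672, rho = 0.593, permutation p = 7e-05 and 0.000220, adjusted 0.000560 and 0.00161), with Mbp (r = 0.632, rho = 0.604, permutation p = 8e-05 and 7e-05, adjusted 0.000560 and 0.000784) and with S100b (r = 0.467, rho = 0.487, permutation p = 0.00124 and 0.000980, adjusted 0.00631 and 0.00457). Without the pair of tumors farthest from the median of Ngfr, of Mbp and of Sox10, in that order, these r were 0.687, 0.544 and 0.480. In the 32 primary tumors and the 16 transplants rho was 0.545 and 0.750 for Sox10 with Ngfr, 0.548 and 0.774 with Mbp, and 0.451 and 0.600 with S100b.

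Gap43 went the other way. It was lower where Ngfr was higher (r = -0.445, rho = -0.531, permutation p = 0.00614 and 0.000230, adjusted 0.0202 and 0.00161) and where Mbp was higher (r = -0.425, rho = -0.484, permutation p = 0.0142 and 0.00114, adjusted 0.0397 and 0.00491), with r of -0.459 and -0.460 without 2 tumors. Spearman's rho was -0.492 in primary tumors and -0.618 in transplants for Ngfr, and -0.463 and -0.618 for Mbp. Its relation with Sox10 (r = -0.401, rho = -0.374, permutation p = 0.0141 and 0.0104, adjusted 0.0397 and 0.0291) fell to r = -0.256 without 2 tumors, so it rested in part on those. Stmn2 passed with Pmp22 alone among the members (r = 0.414, rho = 0.477, permutation p = 0.0123 and 0.00296, adjusted 0.0383 and 0.0109), with r = 0.444 without 2 tumors and rho of 0.449 in primary tumors and 0.812 in transplants. The pairs left were Ngfr with Mbp (r = 0.452, rho = 0.428, permutation p = 0.00578 and 0.00550, adjusted 0.0202 and 0.0162) and Mbp with S100b (r = 0.436, rho = 0.418, permutation p = 0.00308 and 0.00513, adjusted 0.0133 and 0.0160), with r of 0.489 and 0.317 without 2 tumors. In primary tumors and transplants rho was 0.384 and 0.541 for the former and 0.325 and 0.668 for the latter.

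The mean of the other Schwann cell genes rose with Sox10 (r = 0.823, rho = 0.801, permutation p = 1e-05 and 1e-05, adjusted 0.000187 and 0.000280), where 1e-05 is the least that 100000 permutations allow, and r was 0.782 without 2 tumors. Spearman's rho was 0.749 in primary tumors and 0.882 in transplants. The same mean rose with S100b (r = 0.594, rho = 0.654, permutation p = 4e-05 and 1e-05, adjusted 0.000373 and 0.000280), Mbp (r = 0.705, rho = 0.614, permutation p = 1e-05 and 0.000110, adjusted 0.000187 and 0.00103) and Ngfr (r = 0.628, rho = 0.546, permutation p = 3e-05 and 0.000450, adjusted 0.000336 and 0.00280), with r of 0.553, 0.617 and 0.602 without 2 tumors. Their rho was 0.635, 0.523 and 0.556 in primary tumors and 0.709, 0.824 and 0.621 in transplants. It was lower where Gap43 was higher (r = -0.447, rho = -0.437, permutation p = 0.00337 and 0.00332, adjusted 0.0135 and 0.0109; r = -0.354 without 2 tumors). For Stmn2 (rho = 0.0987) and Pmp22 (rho = 0.0497) no relation with it was detected, and the axon and neuron list passed with none of the 7 genes.

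The muscle fiber list also rose with Sox10 (r = 0.722, rho = 0.675, permutation p = 2e-05 and 2e-05, adjusted 0.000280 and 0.000373), Ngfr (r = 0.725, rho = 0.644, permutation p = 1e-05 and 6e-05, adjusted 0.000187 and 0.000784) and Mbp (r = 0.517, rho = 0.531, permutation p = 0.00155 and 0.000840, adjusted 0.00723 and 0.00457), with r of 0.669, 0.670 and 0.463 without 2 tumors. Their rho was 0.622, 0.614 and 0.459 in primary tumors and 0.856, 0.621 and 0.726 in transplants. With S100b it did not pass (r = 0.341, rho = 0.313, permutation p = 0.0259 and 0.0432, adjusted 0.0691 and 0.110). The adipocyte list passed with Sox10 (r = 0.5684, rho = 0.512, permutation p = 0.000480 and 0.000970, adjusted 0.00299 and 0.00457), Ngfr (r = 0.531, rho = 0.475, permutation p = 0.00106 and 0.00277, adjusted 0.00594 and 0.0109) and Mbp (r = 0.473, rho = 0.456, permutation p = 0.00373 and 0.00314, adjusted 0.0139 and 0.0109), with r of 0.537, 0.467 and 0.474 without 2 tumors. All these points share libraries and depth, and how far muscle, fat and nerve were sampled together was not tested.

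**Figure D3:**
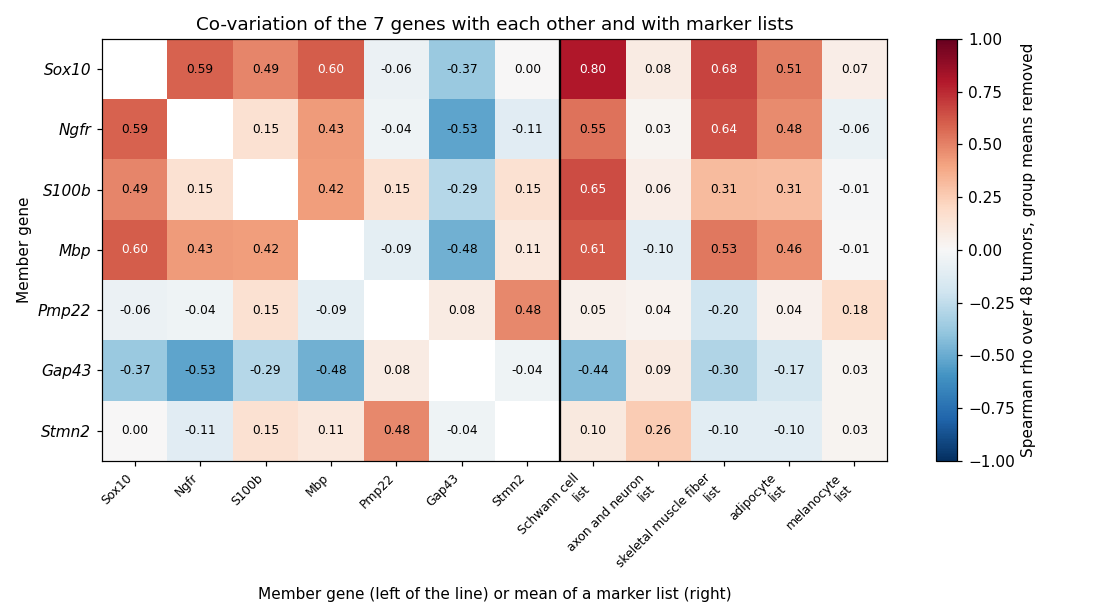
Spearman's rho over 48 tumors, after group means were removed, between the 7 genes (left of the line) and between each gene and the mean of a marker list (right; of the melanocyte list only Pmel was tested). Sox10, S100b, Mbp and Ngfr are positive with the Schwann cell list (0.546 to 0.801), Gap43 is negative (-0.437), and Stmn2 and Pmp22 are near 0.

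**Figure D4:**
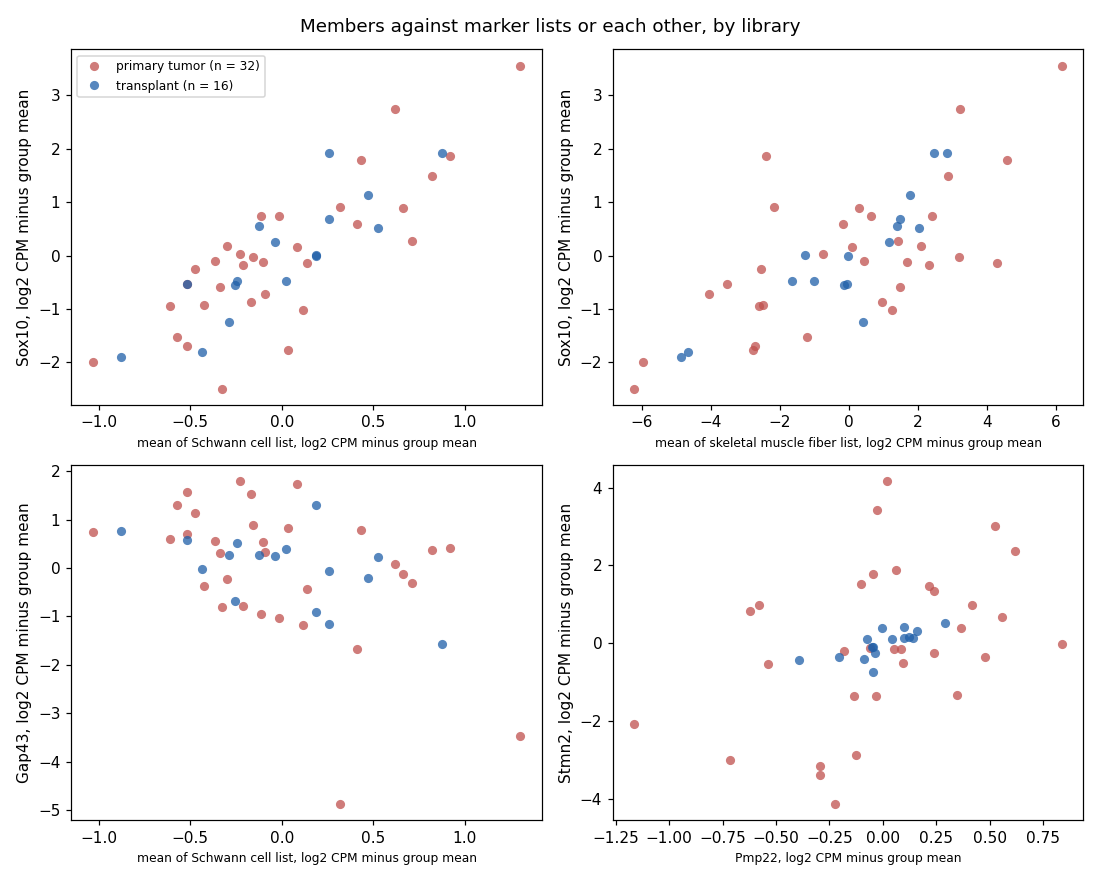
Each point is 1 tumor, as log2 CPM minus its group mean, in red for 32 primary tumors and blue for 16 transplants: Sox10 against the Schwann cell list and the muscle fiber list, Gap43 against the Schwann cell list, and Stmn2 against Pmp22. Sox10 rises with both lists in both models (rho 0.749 and 0.882 for the first).

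The genes most like each member, by rho over the 48 tumors after group means were removed, are given as a description with no test. For Sox10 they included Cpeb3 (0.781, with 0.736 in primary tumors and 0.903 in transplants) and Tcea3 (0.757). For Ngfr they were Cpz (0.804), Arhgef10l (0.786) and Fry (0.783), and for Mbp Lpl, the lipoprotein lipase of fat and muscle (0.781), Zfyve28 (0.729) and Hpn (0.720). For S100b they were Nek7 (0.579), Col2a1, the collagen of cartilage (0.569), and Cgref1 (0.563). For Stmn2 they were Cyb5r3 (0.675), Mcub (0.663) and Gjb5 (0.614), for Gap43 Gm26559 (0.675), Pde1a (0.666) and Fam110c (0.658), and for Pmp22 Ghr (0.688), Dhrs1 (0.687) and Ndrg4 (0.676). In transplants alone the first genes of Stmn2 and Pmp22 had rho of 0.191 and 0.382, against 0.769 and 0.733 in primary tumors.

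The 2 single libraries were compared with the tumors after scaling over all 50 libraries, with 95% exact Clopper-Pearson intervals that cover counting error only and no test. In the library labelled cell line 402230 Stmn2 was 17.2 CPM (795 counts, interval 16.1 to 18.5), above all 16 transplants (1.10 to 4.45) and above 13 of 32 primary tumors. In the library labelled primary tumor 402230 it was 0.246 CPM (11 counts, 0.123 to 0.440), below all 48 tumors. Gap43 was 45.6 CPM (43.6 to 47.6) in the former, again above all 16 transplants (3.996 to 35.7), and 7.42 (6.64 to 8.26) in the latter. If the labels are exchanged, the higher values are those of the parent tumor and the lower ones those of the line that gave the transplants.

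Of the myelin genes, Pmp22 was 58.1 CPM in the library labelled cell line and 34.4 in that labelled primary tumor, the latter below all 48 tumors. Mbp was 7.61 CPM (6.83 to 8.45) and 1.81 (1.44 to 2.25), where transplants ran from 10.5 to 37.6. S100b was 0.910 and 1.05 CPM, with overlapping intervals, and Ngfr 0.238 and 0.737. Sox10 had 0 counts in both, which allows up to 0.0650 and 0.0670 CPM by the limit of 3 counts, while the exact intervals reached 0.0800 and 0.0824, and untreated transplants ran from 0.0238 to 0.974 CPM. Sox2 was 32.4 and 21.7 CPM, within the range of the transplants (5.35 to 63.9).

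**Figure D5:**
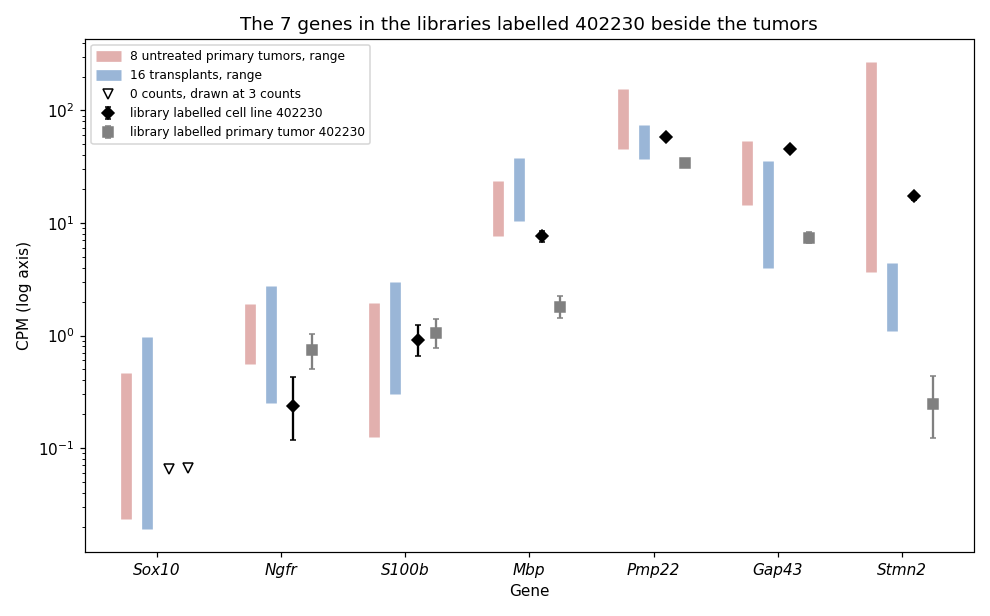
CPM (log axis) of the 7 genes in the libraries labelled cell line 402230 (black diamonds) and primary tumor 402230 (grey squares), with 95% counting intervals, beside the ranges of 8 untreated primary tumors (red bars) and 16 transplants (blue bars); open triangles mark 0 counts, drawn at 3 counts. Stmn2 and Gap43 in the library labelled cell line lie above the transplants, and Sox10 had 0 counts in both libraries.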

How the data were processed

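RNA from whole tumors was captured by poly(A) and made into stranded libraries. Per the authors, reads were trimmed (Trimmomatic 0.36), mapped to mm10 (STAR) and counted per gene of GENCODE M17 (HTSeq), and the deposited counts are raw. The strand setting of HTSeq is not given in the sources used here. Symbols, lengths and coordinates were taken from GENCODE M21 (GRCm38), where 37408 of 37469 identifiers had a symbol.

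Counts were tested with edgeR 4.0.16 (R 4.3.3; filterByExpr, TMM factors, quasi-likelihood fit over 48 tumors in 8 groups, Benjamini-Hochberg over 19327 genes, threshold 0.05), and every adjusted p without another name comes from it. Alternatives were DESeq2 1.42.0, limma 3.58.1 (voom), other scalings, no filter, other sets of samples and each of 48 tumors left out. Groups came from the labels, and replicate numbers are in accession order. Over the 136 pairs of libraries within groups, counts differed by more than sampling noise (chi-square per degree of freedom at least 93.6).

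Named were the 7 members, Trp53, genes of the lists that passed between models or doses, and the 3 genes most like each member; genes of the lists that did not pass were also named where they help to read a group. A few genes that this rule names are not reported here. The members and lists were chosen with earlier results of these data known. RefSeq promoter windows were held for 3 of the 7 members.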

Additional observations from a re-analysis of the deposited data

Results flagged for a closer look

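In 4 of 56 groups of a gene's values 1 tumor stood apart from the others of its group by Dixon's criterion, which chance meets in about 1 of 20 groups. Gap43 was lowest in replicate 8 of the primary tumors given 20 Gy, at -0.55 on the log2 CPM scale (28 counts), with the next tumor at 4.10. It was lowest in replicate 2 of the transplants given the combination, at 2.06, with the next at 3.47. Mbp was highest in replicate 4 of the primary tumors given the combination, at 5.98 (63.2 CPM), with the next at 4.63. Stmn2 was lowest in replicate 2 of the transplants given anti-PD-1 alone, at 0.79, with the next at 1.32. Outside the comparisons, the library labelled cell line 402230 held 17.2 CPM of Stmn2 and 45.6 CPM of Gap43, above all 16 transplants.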

How the results depend on the processing

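Over 49 log2 fold changes of members and 1404 alternatives, 1316 kept direction and side of the threshold, 26 lost a call, 22 gained one and 40 changed direction, the last all in values of Ngfr, S100b and Sox10 that were not called. Levels on the log2 CPM scale moved by less than 1 SD with library totals and with another prior count. Between models, directions changed with limma voom for Ngfr after the combination (0.14), S100b untreated (0.24) and on the average (0.14), and Sox10 after 20 Gy (-0.40) and the combination (0.53), and for S100b under anti-PD-1 with no filter (-0.00540), DESeq2 (-0.00985), library totals (-0.00256) and only the groups compared (-0.0119). With 1 tumor left out, Ngfr ranged from -0.50 to 0.64 untreated, -0.23 to 0.65 after 20 Gy and -0.069 to 0.27 on the average. S100b ranged from -0.59 to 0.12 untreated, -0.61 to 0.52 under anti-PD-1, -1.52 to 0.25 after 20 Gy, -0.32 to 0.14 on the average and -0.19 to 0.39 for radiation of primary tumors. Sox10 ranged from -0.75 to 0.66 after 20 Gy and -0.0078 to 0.51 on the average.

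Counts of all genes past the threshold changed as follows. Anti-PD-1 gave 14 genes in primary tumors with DESeq2, 0 with limma voom (905 at an unadjusted p under 0.05) and 0 in edgeR with only the groups compared (919), 1 in transplants with DESeq2 and 1 for the interaction with DESeq2. Radiation by model gave 0 in edgeR with no filter (2568 unadjusted), 69 with DESeq2 and 3 with library totals and 3 with upper-quartile factors. With only the groups compared, radiation of transplants gave 2432, the combination in primary tumors 1396 and the models after the combination 2. DESeq2 gave 1449 between models after 20 Gy and 2071 after the combination, where no filter gave 742 and adding the library labelled primary tumor 402230 gave 683, and 410 for the combination in transplants. With 1 tumor left out the counts were 1009 to 2248 (untreated models), 627 to 1516 (anti-PD-1), 350 to 917 (20 Gy), 154 to 2353 (combination), 6173 to 7338 (average), 5098 to 6496 and 993 to 1543 (radiation of primary tumors and transplants), 0 to 21 (radiation by model), 2 to 8 (anti-PD-1 in primary tumors), 2537 to 4400 and 270 to 917 (combination in primary tumors and transplants). Counts moved by over 1.5 times without untreated transplant replicates 1 (1174), 2 (1039), 4 (1009) for untreated models, anti-PD-1 transplant replicates 1 (627), 3 (654) for models under anti-PD-1, 20 Gy transplant replicates 1 (538), 2 (559), 3 (575), 4 (350) for models after 20 Gy, combination primary replicates 4 (2353), 6 (855), 8 (809) and combination transplant replicates 1 (683), 2 (527), 3 (154) for models after the combination, untreated transplant replicates 1 (343), 2 (370), 4 (270) and combination transplant replicates 2 (518), 3 (540) for the combination in transplants and anti-PD-1 primary replicates 1 (5), 6 (7) and combination primary replicate 1 (8) for anti-PD-1 in primary tumors. Radiation by model moved in this way without 14 of the tumors, down to 0 without 20 Gy transplant replicate 1 (1606 unadjusted). With upper-quartile factors the share of higher genes among those past the threshold was 36.3% between models after 20 Gy, against 50.7%, where DESeq2 gave 36.9% and limma voom 63.7%. After the combination it was 64.2% with limma voom and 33.1% with the library labelled primary tumor 402230, against 44.989%. It was 72.1% for the combination in primary tumors with only the groups compared, against 60.4%, and 69.6% with upper-quartile factors and 69.7% with only the groups compared for radiation of transplants, against 80.9%. The causes were not tested. No paired analysis was possible because the labels give no replicate numbers that groups share. Few reads limit Sox10, S100b and Ngfr.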
